A study of Mus musculus with 4 samples.

Results

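Potassium channel subunits were examined in RNA sequencing of mouse abdominal aortic graft tissue. The genes taken were all those whose mouse symbol begins with Kcn and which are annotated as protein-coding, 94 of the 54752 gene IDs in the count table. They comprise pore-forming subunits, their accessory subunits and 1 regulator. The grafts formed a group labelled ALLO, allografts in chronic rejection per the series title, and a group labelled ISO, a name the labels do not spell out, each with 2 libraries (n = 2 per group throughout). All tissue was taken 4 weeks after transplantation, and neither strain, age, sex nor treatment is given for either group. The labels do not tie libraries to animals, and the p-values therefore describe the spread between these 4 libraries, some of which may be technical.

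Potassium channels let potassium leave the cell and hold the membrane negative. In arterial smooth muscle this keeps voltage-gated calcium channels shut and the vessel relaxed, through voltage-gated, calcium-activated, ATP-sensitive and background channels. In T cells and macrophages potassium efflux maintains the electrical drive for calcium entry, through a different set of channels. A pore is built from alpha subunits, and accessory subunits set its gating, its calcium sensitivity or its delivery to the membrane.

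The libraries held 18978538 and 20194854 counts in ALLO and 18488823 and 17532344 in ISO. Of 12 smooth muscle markers 11 fell in ALLO and of 8 T cell markers 8 rose. Of 5 NK cell markers 5 rose and of 8 macrophage markers 7 rose. Among all 16498 genes tested, 18.4% were called higher and 14.8% lower, the background for every list count below. Other lists were less uniform. Of 5 B cell markers none passed, of 5 neutrophil markers 2 rose, and of 6 pericyte markers 1 rose, 1 fell and 4 did not pass. The smooth muscle markers were at a summed 638 and 1380 RPKM in ALLO and 15000 and 14600 in ISO, T cell markers at 160 and 143 in ALLO and 3.53 and 1.72 in ISO, and macrophage markers at 1930 and 2380 in ALLO and 277 and 122 in ISO. NK cell markers were at a summed 53.0 and 44.4 RPKM in ALLO and 1.41 and 2.45 in ISO. RPKM here means counts per kilobase of summed exon length, scaled to a common library size that allows for composition. Levels of different genes can thus be set side by side, but their order and ratios depend on the annotated exon length. That length is 16976 bases for Kcnma1 and 4191 for Kcnmb1. The ISO libraries stood apart from each other in leukocyte RNA, with B cell markers at 18.5 RPKM in replicate 1 and 0.212 in replicate 2. They also differed in sex, with 10647 counts of the X inactivation transcript Xist in replicate 1 and 8 in replicate 2. Xist was at 6 and 0 counts in ALLO. The Y chromosome gene Ddx3y had 2287 and 2105 counts in ALLO and 0 and 2312 in ISO, so the groups were not balanced in these genes. In bulk tissue, fewer cells of a type and less RNA per cell cannot be told apart, which holds for every change below.

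Promoter sequences are shown for 2 genes of each direction, since a Kv1 family pair and a calcium-activated pair moved opposite ways. Kcna3 and Kcnn4 encode the classical potassium channels of lymphocytes and were higher in ALLO. Kcna5 encodes a Kv1 channel of smooth muscle, Kcnmb1 the beta subunit of its large-conductance calcium-activated channel, and both were lower. Each line gives the 250 bases before the annotated start, 5′ to 3′ on the gene's strand, from RefSeq on GRCm38.p6. The windows are chr3:107035912-107036161 on the plus strand for Kcna3, chr7:24370013-24370262 on the plus strand for Kcnn4, chr6:126535556-126535805 on the minus strand for Kcna5 and chr11:33962763-33963012 on the plus strand for Kcnmb1. Capitals mark GAGGAA on either strand, the purine-rich core bound by the leukocyte ETS factor PU.1.
Kcna3: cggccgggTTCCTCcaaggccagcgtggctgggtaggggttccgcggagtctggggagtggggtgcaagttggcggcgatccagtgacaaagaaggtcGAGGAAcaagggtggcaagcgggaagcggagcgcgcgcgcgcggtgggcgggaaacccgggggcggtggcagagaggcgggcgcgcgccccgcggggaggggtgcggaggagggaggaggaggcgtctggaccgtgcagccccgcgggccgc
Kcnn4: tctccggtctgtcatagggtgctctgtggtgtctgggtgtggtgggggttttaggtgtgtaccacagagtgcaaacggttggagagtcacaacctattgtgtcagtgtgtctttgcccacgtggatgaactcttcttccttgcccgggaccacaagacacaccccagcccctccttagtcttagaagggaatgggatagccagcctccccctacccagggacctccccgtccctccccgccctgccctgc
Kcna5: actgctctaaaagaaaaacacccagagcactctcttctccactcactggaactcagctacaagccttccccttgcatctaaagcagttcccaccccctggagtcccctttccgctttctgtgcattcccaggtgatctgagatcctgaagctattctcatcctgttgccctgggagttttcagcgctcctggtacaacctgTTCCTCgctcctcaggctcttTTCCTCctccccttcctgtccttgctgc
Kcnmb1: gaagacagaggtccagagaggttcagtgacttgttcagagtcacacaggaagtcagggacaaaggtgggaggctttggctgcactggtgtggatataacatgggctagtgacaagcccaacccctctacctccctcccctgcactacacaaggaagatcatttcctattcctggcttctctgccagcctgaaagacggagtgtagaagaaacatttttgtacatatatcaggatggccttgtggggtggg
Kcna3 and Kcna5 each held 2 matches and the windows of Kcnn4 and Kcnmb1 held 0. Of 94 windows of the 69 potassium channel genes with an entry, 23 held GAGGAA (24.5%), against 23.3% of all 32851 windows. The CArG box, the serum response factor motif of contractile genes, was searched on both strands as well and was in 0 of the 94 windows and in 1.47% of all windows. GGAAAA, the core of NFAT sites, which can overlap GAGGAA, was in 14.9% of the potassium channel windows and 20.4% of all windows. TTCNNNGAA, the spacing of STAT sites, was in 7.45% of the potassium channel windows and 7.02% of all windows. These counts describe letters in this window and say nothing of binding.

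Of the 94 potassium channel genes, 49 had enough counts to be tested, 13 were at 0 in all 4 libraries, and the other 32 reached at most 41 counts in a library. In ALLO 13 were higher and 16 lower at a Benjamini-Hochberg adjusted p under 0.05 in edgeR's quasi-likelihood test, and 20 were not called. Among all 16498 genes tested, 18.4% were called higher and 14.8% lower. Members were taken by symbol, but with earlier results of these data known, so these counts are a description. In addition, genes of low count enter the test mostly through the group where they are high. Without ISO replicate 2 or without ALLO replicate 1, 8 were called higher in each case. In 13 alternative fits, 17 of the 29 called genes kept their call and direction every time. Among them Kcna2, Kcna3, Kcnab2, Kcnj10, Kcnk6, Kcnk13 and Kcnn4 were higher, and Kcnab1, Kcnd3, Kcnh2, Kcnip4, Kcnj8, Kcnj11, Kcnma1 and Kcnmb1 were lower.

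**Figure D1:**
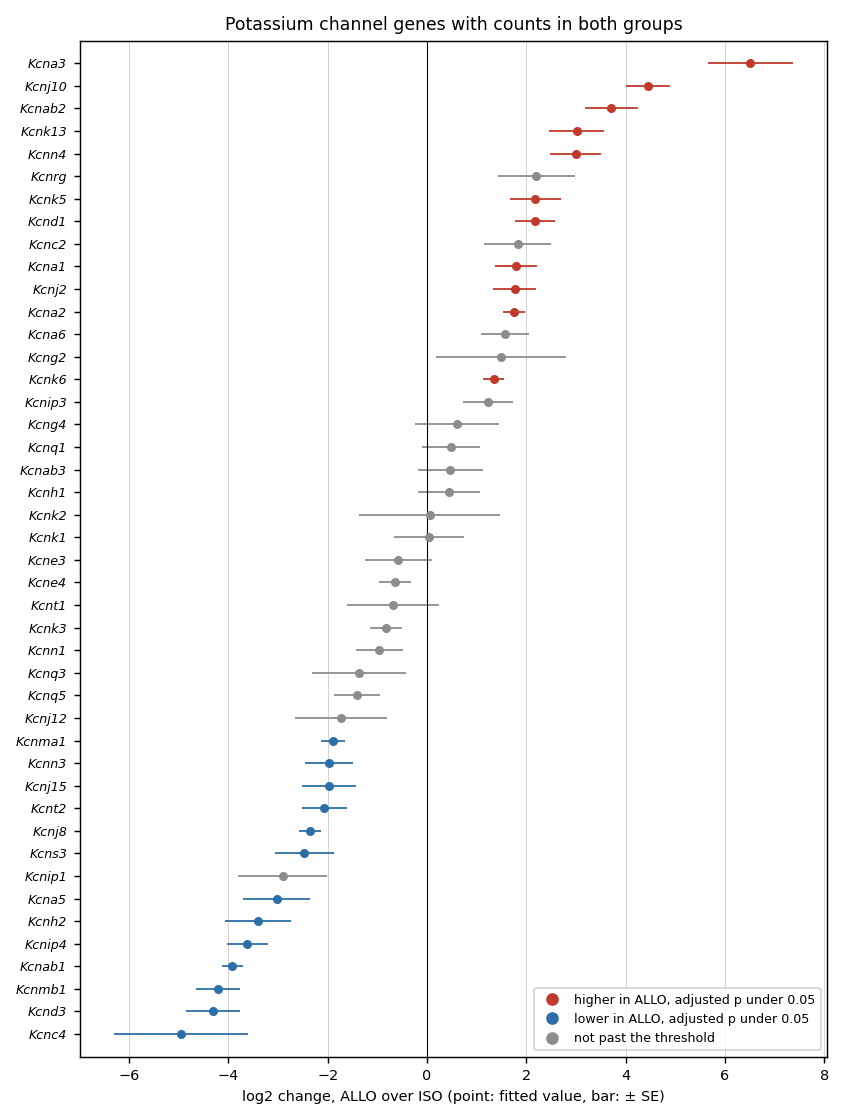
Fitted log2 change (horizontal axis, ALLO over ISO) of potassium channel genes that were tested and had counts in both groups. Points are fitted values, bars are standard errors, and colour marks the edgeR call. Kcna3 is highest at 6.51 and Kcnc4 lowest at -4.96, and the genes not drawn include Kcnj11, which was at 0 counts in ALLO, and Kcnip2, which was at 0 counts in ISO.

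The levels changed order between the groups. Kcnn4 had the highest mean in ALLO, at 14.1 ± 2.5 RPKM (SD), followed by Kcnab2 at 11.4 ± 0.706 and Kcnk6 at 8.95 ± 0.932. In ISO the top of the order was Kcnmb1 at 65.5 ± 7.45 RPKM, Kcnh2 at 31.8 ± 1.41, Kcnab1 at 21.8 ± 2.49 and Kcnj8 at 20.8 ± 3.23. Neighbours whose ranges overlapped or met within 1 SD, such as Kcnab1 and Kcnj8 in ISO, do not differ beyond their spread. All potassium channel genes together summed to 94.0 and 99.0 RPKM in ALLO and 232 and 237 RPKM in ISO. A list of 15 smooth muscle types took 29.7% and 25.7% of that sum in ALLO and 69.1% and 68.4% in ISO. A list of 6 leukocyte types took 50% and 49.3% in ALLO and 3.85% and 2.5% in ISO.

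**Figure D2:**
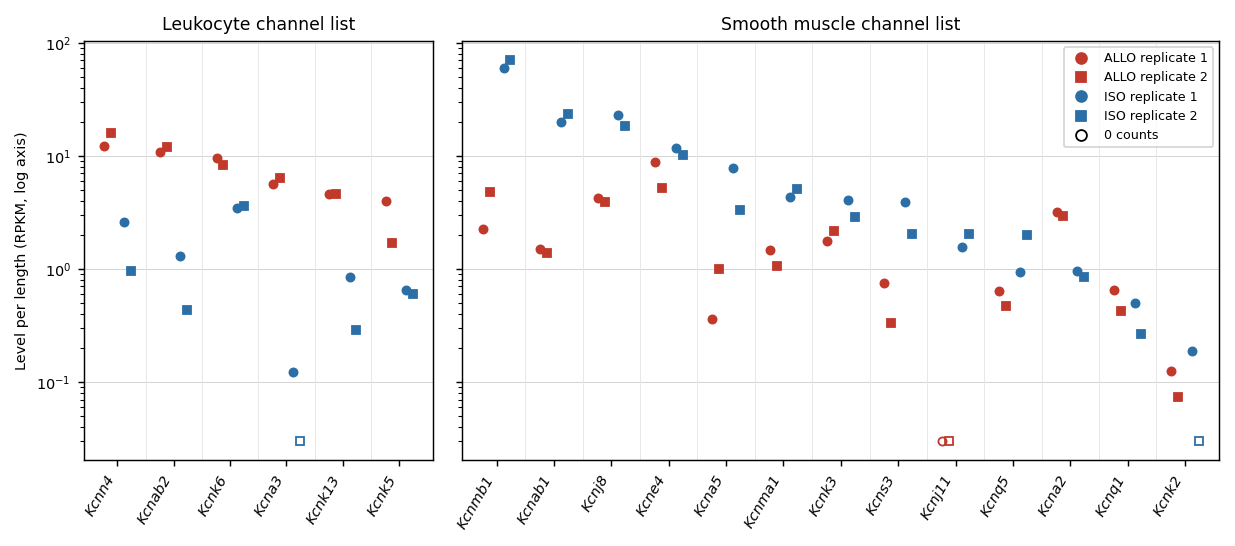
Level per length (RPKM, log axis) of each library for the 6 leukocyte types (left) and 13 of the 15 smooth muscle types (right), with red for ALLO, blue for ISO, circles for replicate 1 and squares for replicate 2. Open symbols at the bottom stand for 0 counts. All 6 leukocyte types sit higher in both ALLO libraries, while Kcnmb1, at 2.24 and 4.83 RPKM in ALLO and 60.2 and 70.7 RPKM in ISO, leads the smooth muscle types that sit lower.

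Of the 15 smooth muscle types, 9 fell, 1 rose and 5 did not pass, with a median log2 change of -1.99, against 0.03 over all genes tested. The lists come from textbook knowledge and were made with earlier results of these data known, so the count is a description. The large-conductance calcium-activated (BK) channel was lower in both of its subunits. Kcnmb1, the beta subunit that raises the calcium sensitivity of the channel in smooth muscle (ENSMUSG00000020155.2, chromosome 11, 33963013 to 33973641, mm10), had 183 and 446 counts in ALLO and 4315 and 4912 in ISO. Its log2 change was -4.21 ± 0.44 (SE, edgeR adjusted p = 0.00472), which is 18.5-fold lower, and 29.1-fold when ALLO replicate 2 was left out. Kcnma1, the pore of the channel (chromosome 14, 23289431 to 24014491), was at 1.48 and 1.06 RPKM in ALLO and 4.33 and 5.13 RPKM in ISO. With groups that do not overlap, it fell by 1.90 ± 0.24 in log2 units (edgeR adjusted p = 0.00651), and 5.98% of its exonic bases also belong to an antisense gene.

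Within a library, Kcnmb1 stood at 1.52 and 4.56 times the per-length level of Kcnma1 in ALLO and at 13.9 and 13.8 times in ISO. The groups do not overlap, but an exact two-sided permutation test of 2 libraries against 2 cannot go below p = 0.333, the value found here. Beside smooth muscle myosin, Kcnmb1 was at 0.0499 and 0.0732 times the level of Myh11 in ALLO and 0.0532 and 0.0560 times in ISO, so these ratios overlap. Kcnma1 was at 0.0329 and 0.0161 times Myh11 in ALLO and at 0.00382 and 0.00406 times in ISO, so its level relative to Myh11 was higher in both ALLO libraries (exact permutation p = 0.333). Myh11 itself, the smooth muscle myosin heavy chain gene, changed by -4.43 ± 0.47 (log2, edgeR adjusted p = 0.00477). The other 3 BK beta subunit genes, Kcnmb2, Kcnmb3 and Kcnmb4, had 0 counts in ISO and at most 16 in an ALLO library.

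The ATP-sensitive channel was lower in both pore genes and in its vascular regulatory subunit. Kcnj8, the vascular pore gene (chromosome 6, 142564837 to 142571614), was at 4.24 and 3.94 RPKM in ALLO and 23.1 and 18.5 RPKM in ISO, 5.08-fold lower (log2 change -2.35 ± 0.22, edgeR adjusted p = 0.00395). Kcnj11, the pore gene of the pancreatic and cardiac channel (chromosome 7, 46093953 to 46100764), had 0 counts in both ALLO libraries and 98 and 124 in ISO. With a floor of 6 counts per library it was at least 22.8-fold lower in ALLO (edgeR adjusted p = 0.00567). Abcc9, the sulphonylurea receptor of vascular muscle, was at 11.0 and 4.19 RPKM in ALLO and 57.2 and 66.7 RPKM in ISO, 8.14-fold lower (edgeR adjusted p = 0.0127). Abcc8, its pancreatic counterpart, had 0 counts in ALLO and 9 and 14 in ISO, too few to be tested. The ratio of Abcc9 to Kcnj8 was 2.61 and 1.06 in ALLO and 2.48 and 3.61 in ISO, with overlapping groups.

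Kcna5, Kcns3 and Kcnab1, smooth muscle subunits that form or join delayed rectifiers, fell in ALLO, while Kcna2 rose. Kcna5, a Kv1 pore gene (chromosome 6, 126532551 to 126535412), was at 0.359 and 0.999 RPKM in ALLO and 7.80 and 3.35 RPKM in ISO, 8.15-fold lower (edgeR adjusted p = 0.0263). The libraries within a group differed by over 2-fold here, and without ALLO replicate 1 the call was lost at 5.42-fold (edgeR adjusted p = 0.0744), with 15.3-fold without ALLO replicate 2 and 4.95-fold without ISO replicate 1. Kcns3, a silent subunit that joins Kv2 pores, had 46 and 23 counts in ALLO and 212 and 107 in ISO. It was 5.54-fold lower (edgeR adjusted p = 0.0306), but missed the threshold without ISO replicate 1 (0.0900) and without ALLO replicate 2 (0.0781), and was 8.75-fold lower without ALLO replicate 1. Kcnab1, a cytosolic Kv1 beta subunit (chromosome 3, 65109384 to 65378223), had 249 and 262 counts in ALLO and 2940 and 3350 in ISO. Its 15.1-fold lower level (log2 change -3.92 ± 0.21, edgeR adjusted p = 0.00216) was the smallest adjusted p among the potassium channel genes.

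Kcna2, another Kv1 pore gene found in smooth muscle and in axons (chromosome 3, 107101146 to 107115005), was higher in ALLO. It stood at 3.17 and 2.91 RPKM in ALLO and 0.953 and 0.852 RPKM in ISO, with groups far apart (log2 change 1.75 ± 0.22, edgeR adjusted p = 0.00638). Kcnq5, a KCNQ pore gene found in arteries, at 0.635 and 0.466 RPKM in ALLO and 0.935 and 1.99 RPKM in ISO, did not pass (log2 change -1.41 ± 0.47, edgeR adjusted p = 0.0760) but passed without ISO replicate 1 (0.0201), with no filter on low counts (0.0451) and with the Wald test of DESeq2 (0.0353). Without ISO replicate 2 its log2 change was -0.79. Kcnq1, the KCNQ pore gene best known from the heart, was at 0.653 and 0.421 RPKM in ALLO and 0.500 and 0.265 RPKM in ISO (edgeR adjusted p = 0.573). Kcne4, an accessory subunit that partners arterial KCNQ channels, was at 8.86 and 5.16 RPKM in ALLO and 11.7 and 10.1 RPKM in ISO (log2 change -0.64 ± 0.32, edgeR adjusted p = 0.190), which placed it right after Kcnk6 in the ALLO order of means.

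The background channels of the tandem-pore (K2P) family on the smooth muscle list, Kcnk3 and Kcnk2, did not pass. Kcnk3, an acid-sensitive background channel, was at 1.76 and 2.16 RPKM in ALLO and 4.06 and 2.88 RPKM in ISO (log2 change -0.83 ± 0.32, edgeR adjusted p = 0.106). Brown adipocytes also express Kcnk3, and of their markers Ucp1 was at 0.251 and 0 RPKM in ALLO and 8.83 and 8.89 RPKM in ISO, and Cidea at 2.34 and 0.468 RPKM in ALLO and 27.6 and 28.5 RPKM in ISO. Of all 6 adipocyte markers 2, these same genes, fell, 1 rose (Cidec, 3.3-fold, edgeR adjusted p = 0.00511) and 3 did not pass, with summed levels of 201 and 178 RPKM in ALLO and 216 and 149 RPKM in ISO. The part of adipocytes in the Kcnk3 values was not tested. Kcnk2, the stretch-activated channel gene, had 12 and 8 counts in ALLO and 16 and 0 in ISO, too few to tell (log2 change 0.05 ± 1.42).

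All 6 leukocyte types rose in ALLO, with a median log2 change of 3.0. Kcna3, the voltage-gated channel of T cells (ENSMUSG00000047959.4, chromosome 3, 107036169 to 107038070, mm10), had 207 and 269 counts in ALLO and 4 and 0 in ISO. The ratio of the groups was 96.6, with 95% counting limits of 26.4 and 802 (edgeR adjusted p = 0.00719). The fitted fold was 46.9 without ISO replicate 2, and none is given without ISO replicate 1, since ISO replicate 2 was at 0. Kcnn4, the intermediate-conductance calcium-activated channel of activated lymphocytes, macrophages and proliferating smooth muscle (ENSMUSG00000054342.8, chromosome 7, 24370263 to 24386690), was at 12.3 and 15.9 RPKM in ALLO and 2.59 and 0.956 RPKM in ISO. The rise was 7.94-fold (log2 change 2.99 ± 0.51, edgeR adjusted p = 0.0128), and 14.6-fold with ISO replicate 1 left out. Kcnab2, the Kv1 beta subunit of leukocytes and brain (chromosome 4, 152390742 to 152477871), was at 10.9 and 11.9 RPKM in ALLO and 1.30 and 0.433 RPKM in ISO, 13.1-fold higher (edgeR adjusted p = 0.00891, 26.0-fold without ISO replicate 1 and 8.63-fold without ISO replicate 2).

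Kcnab1 and Kcnab2 thus stood in opposite order in the groups. Kcnab1 was at 0.137 and 0.116 times the level of Kcnab2 in ALLO, and at 15.4 and 54.4 times in ISO (exact permutation p = 0.333, the smallest possible). The third, Kcnab3, had 10 to 30 counts in every library and was not called (edgeR adjusted p = 0.624).

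The 3 K2P (tandem-pore) channels placed on the leukocyte list rose as well. Kcnk6, through which potassium leaves macrophages ahead of inflammasome activation (chromosome 7, 29221926 to 29232515), was at 9.61 and 8.29 RPKM in ALLO and 3.44 and 3.63 RPKM in ISO (log2 change 1.34 ± 0.21, edgeR adjusted p = 0.0110). Kcnk13, a channel of microglia in the brain (chromosome 12, 99964499 to 100062682), was at 4.59 and 4.58 RPKM in ALLO and 0.845 and 0.291 RPKM in ISO, 8.03-fold higher (edgeR adjusted p = 0.0156, 15.5-fold without ISO replicate 1 and 5.33-fold without ISO replicate 2). Kcnk5, an acid-sensitive channel described in T cells, was at 3.99 and 1.71 RPKM in ALLO and 0.653 and 0.603 RPKM in ISO. Its 4.52-fold rise (edgeR adjusted p = 0.0313) was lost without ISO replicate 2 (0.0619) and without ALLO replicate 1 (2.78-fold, 0.103), and with limma-voom (0.0630). In ISO, Kcna3, Kcnn4, Kcnab2 and Kcnk13 were each higher in replicate 1, the library that also had the higher macrophage, T cell and B cell markers. NK cell markers went the other way, at a summed 1.41 RPKM in ISO replicate 1 and 2.45 in ISO replicate 2. Kcnk6, at 3.44 and 3.63 RPKM, and Kcnk5, at 0.653 and 0.603 RPKM, were close to equal in the ISO libraries. The part of those cells in the values was not tested.

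Of the 8 Kv1 pore genes 6 lie in 2 clusters, and members of the cluster on chromosome 6 moved opposite ways. On chromosome 6, Kcna5 was lower in ALLO, while Kcna1 (126640397 to 126646384) was higher, at 1.96 and 2.32 RPKM in ALLO and 0.795 and 0.442 RPKM in ISO (edgeR adjusted p = 0.0290). The Kcna1 call was lost without ISO replicate 2 (0.0919), ALLO replicate 1 (0.0657) or ALLO replicate 2 (0.0822). Kcna6 (126708329 to 126740674), with 103 and 215 counts in ALLO and 34 and 51 in ISO, did not pass (edgeR adjusted p = 0.0622) and shares 39.6% of its exonic bases with the gene model Gm26673. On chromosome 3, Kcna3 and Kcna2 were both higher and Kcna10, the third gene there, was at 0 throughout. As shares of the summed Kv1 level, Kcna3 took 46.3% and 44.5% in ALLO and 1.23% and 0.0% in ISO. Kcna5 took 2.97% and 6.92% in ALLO and 78.0% and 64.9% in ISO.

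**Figure D3:**
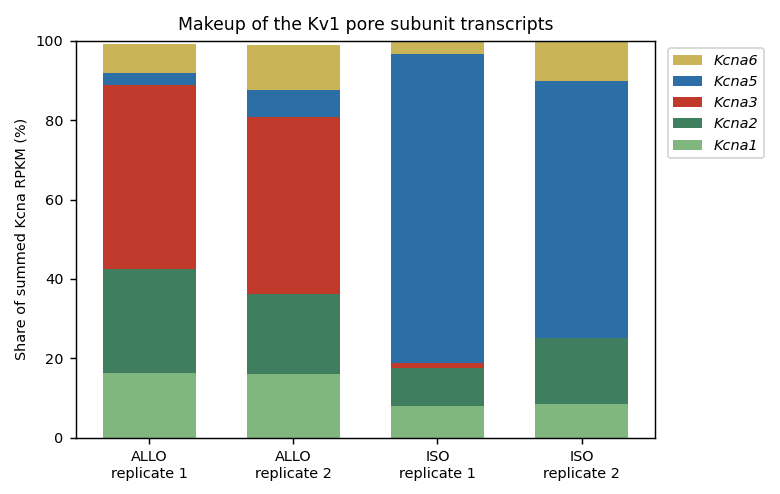
Share (%) of the summed per-length level of the Kv1 pore genes taken by each of 5 genes in each library; the small remainder in ALLO is Kcna4. Kcna3 holds 46.3% and 44.5% of the bars in ALLO, and Kcna5 holds 78.0% and 64.9% in ISO.

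Several channel genes outside both lists were lower in ALLO. Kcnh2, the ERG channel gene best known for cardiac repolarization (chromosome 5, 24319589 to 24351604), was the second most abundant in ISO, at 1.22 and 4.81 RPKM in ALLO and 32.8 and 30.8 RPKM in ISO. The fall was 10.5-fold (edgeR adjusted p = 0.0183). It came to 6.47-fold with ALLO replicate 1 left out and to 25.9-fold with ALLO replicate 2 left out. Kcnc4, a fast Kv3 pore gene (chromosome 3, 107438303 to 107459552), had 0 and 65 counts in ALLO and 705 and 869 in ISO. Its call (log2 change -4.96 ± 1.35, edgeR adjusted p = 0.0435) was lost with the Wald test of DESeq2 (0.164) and with a filter on the mean count (0.0548). The fold was 15.5 without ALLO replicate 1, none is given without ALLO replicate 2, since ALLO replicate 1 was at 0, and limma-voom put the log2 change at -7.27.

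The transient-outward Kv4 genes differed among themselves. Kcnd3 (chromosome 3, 105452330 to 105674002) fell to 0.193 and 0.0663 RPKM in ALLO, against 2.68 and 2.46 RPKM in ISO (log2 change -4.31 ± 0.55, edgeR adjusted p = 0.00665). The 19.9-fold difference became 37.4-fold when ALLO replicate 1 was dropped and 13.2-fold when ALLO replicate 2 was. Kcnd1, on the X chromosome, was higher, at 1.30 and 1.95 RPKM in ALLO and 0.354 and 0.365 RPKM in ISO (edgeR adjusted p = 0.0156, and 0.0533 without ALLO replicate 2). The ISO libraries differed in Xist and both ALLO libraries were low in it, and the part of sex in the Kcnd1 values was not tested. KChIP proteins are calcium-binding partners of Kv4 pores. Kcnip4 was at 0.170 and 0.188 RPKM in ALLO and 2.16 and 2.30 RPKM in ISO, 12.3-fold lower (edgeR adjusted p = 0.00527). Kcnip2 had 37 and 20 counts in ALLO while both ISO libraries were at 0. Against the floor it was at least 3.94-fold higher (edgeR adjusted p = 0.0238), but no fit on 3 libraries called it (0.0528 to 0.121).

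Kcnn3, the small-conductance calcium-activated channel gene known from endothelium, was 3.94-fold lower in ALLO (56 and 33 counts in ALLO, 123 and 166 in ISO, edgeR adjusted p = 0.0312), a call lost without ISO replicate 2 (0.100) and without ALLO replicate 2 (0.0763). Kcnj2, a strong inward rectifier of endothelium, smooth muscle and macrophages, was 3.38-fold higher (173 and 119 counts in ALLO, 36 and 35 in ISO, edgeR adjusted p = 0.0329), lost without ISO replicate 1 (0.0873), ISO replicate 2 (0.0923) or ALLO replicate 1 (0.12). Of 8 endothelial markers, 4 fell and 1 rose, with summed levels of 114 and 125 RPKM in ALLO and 246 and 250 RPKM in ISO. The part of endothelium in these values was not tested.

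Kcnt2, a sodium-activated channel gene, and Kcnj15, an inward rectifier, also passed as lower, but lost their call in several fits. Kcnt2 was 4.2-fold lower (63 and 79 counts in ALLO, 158 and 323 in ISO, edgeR adjusted p = 0.0247), lost without ISO replicate 2 (2.75-fold, 0.0871), ALLO replicate 1 (0.0996) or ALLO replicate 2 (0.0767). Kcnj15 was 3.96-fold lower (132 and 258 counts in ALLO, 351 and 874 in ISO, edgeR adjusted p = 0.0445), lost without ISO replicate 2 (2.25-fold, 0.112), ALLO replicate 1 (0.165) or ALLO replicate 2 (0.0778), and with library-size scaling (0.0618), a mean-count filter (0.0521) or limma-voom (0.0550).

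Some channel genes of nerve and glia were higher in ALLO. Of 10 such genes, 3 rose, none fell, 3 did not pass and 4 were too low to test. Those that did not pass went both ways, with log2 changes of 1.57 for Kcna6, -2.91 for Kcnip1 and -0.69 for Kcnt1. Kcnj10, the inward rectifier of glia (chromosome 1, 172341210 to 172374085), had 201 and 178 counts in ALLO and 8 and 6 in ISO, 21.8-fold higher (log2 change 4.45 ± 0.45, edgeR adjusted p = 0.00448). Kcna1 was described above. Of 9 Schwann cell and nerve markers, 4 rose, 4 did not pass and 1 was not tested, and their summed levels overlapped, at 29.1 and 79.5 RPKM in ALLO and 47.0 and 48.6 RPKM in ISO. Mbp, a myelin protein gene, was at 9.11 and 11.4 RPKM in ALLO and 1.13 and 0.539 RPKM in ISO. Sox10 and S100b, genes of Schwann cells and other glia, did not pass (edgeR adjusted p = 0.0625 and 0.48). Uchl1, a gene of neurons, was at 2.33 and 15.6 RPKM in ALLO and 38.8 and 43.7 RPKM in ISO and did not pass either (edgeR adjusted p = 0.103).

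Some channel genes of low count were found in a single ALLO library. Kcnk12, a tandem-pore channel gene, and Kcns2, a silent Kv subunit gene, had 18 and 11 counts in ALLO replicate 2 and 0 in the other 3 libraries. Others had counts in ALLO replicate 1 alone, among them Kcnv2 (14), Kcnk18 (8), Kcnmb2 (8) and Kcnmb3 (4). Sympathetic markers were highest in ALLO replicate 2. Th, the rate-limiting enzyme of catecholamine synthesis, was at 0.0870 and 5.51 RPKM in ALLO and 0 in ISO. Dbh was at 0.382 and 13.4 RPKM in ALLO and 0 in ISO. Kcnh2, Kcnc4 and Kcnq3 were also higher in ALLO replicate 2 than in ALLO replicate 1, with Kcnq3 at 8 and 78 counts in ALLO and 79 and 94 in ISO. All 3 were higher still in ISO. Of the nerve markers, Th and Dbh were at 0 in ISO. Uchl1 was at 38.8 and 43.7 RPKM there, above its 2.33 and 15.6 RPKM in ALLO. The smooth muscle markers, at a summed 638 and 1380 RPKM in ALLO and 15000 and 14600 RPKM in ISO, were likewise higher in ALLO replicate 2 than in ALLO replicate 1, as was Kcnmb1. The part of nerve tissue or smooth muscle in these values was not tested.

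**Figure D4:**
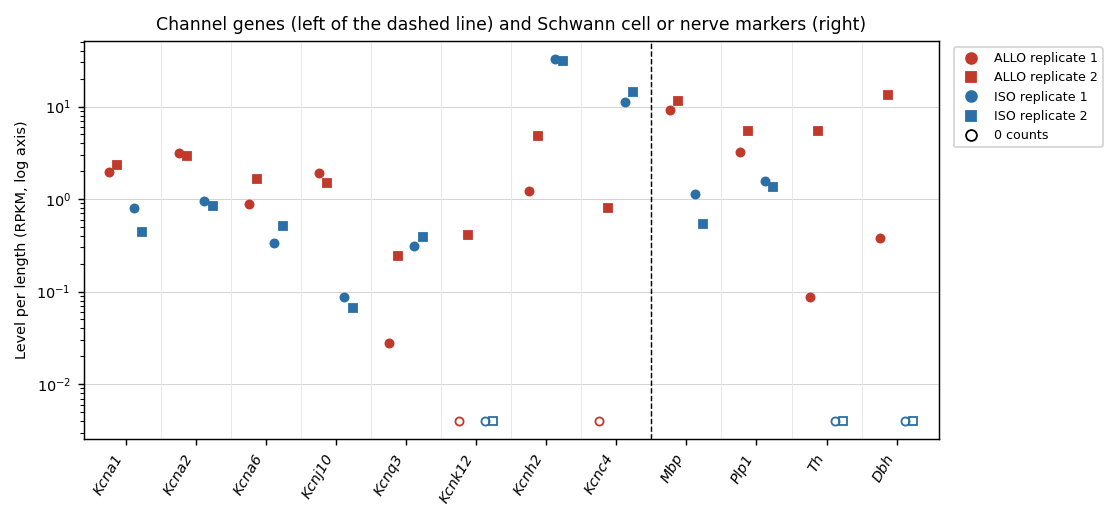
Level per length (RPKM, log axis) in each library of 8 channel genes (left of the dashed line) and 4 Schwann cell or sympathetic markers (right), with open symbols for 0 counts. Kcnk12 has counts in ALLO replicate 2 alone, the library in which Th is at 5.51 and Dbh at 13.4 RPKM.

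The remaining tested genes were not called. They were the potassium channel regulator Kcnrg, the KChIP genes Kcnip1 and Kcnip3, Kcnc2, Kcng2, Kcng4, Kcnh1, Kcne3, Kcnj12, Kcnk1, Kcnn1, Kcnt1 and those named above. Of these Kcnip1 had the smallest adjusted p, with 8 and 2 counts in ALLO and 42 and 22 in ISO (log2 change -2.91 ± 0.90, edgeR adjusted p = 0.0616). The 13 genes at 0 in every library were Kcna7, Kcna10, Kcnb2, Kcne1, Kcne2, Kcnh5, Kcnj5, Kcnj6, Kcnk4, Kcnk9, Kcnk15, Kcns1 and Kcnv1. At this depth a count of 0 allows up to 6 counts per library, or 3 read pairs, so low expression was not detectable. The other 32 untested genes included Kcna4, Kcnc1, Kcnd2, Kcne1l, Kcnf1, Kcng1, Kcng3, Kcnh3, Kcnh4, Kcnh6, Kcnh7, Kcnh8, Kcnj1, Kcnj3, Kcnj4, Kcnj9, Kcnj13, Kcnj14, Kcnj16, Kcnk7, Kcnk10, Kcnk12, Kcnk16, Kcnk18, Kcnmb2, Kcnmb3, Kcnmb4, Kcnn2, Kcns2, Kcnu1 and Kcnv2.

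Partners outside the Kcn symbols were read from lists as well. Of 15 partner genes, 3 fell, none rose, 4 did not pass and 8 were not tested. Apart from Abcc9, these were Amigo1, a partner of Kv2 pores (2.78-fold lower, edgeR adjusted p = 0.0126), and the anchoring protein gene Akap5 (6.84-fold lower, 0.0170). In a list of 16 genes for membrane potential and calcium entry in smooth muscle, 9 fell and 1 rose. Cacna1c, the pore of the L-type calcium channel that potassium channels restrain, was at 1.20 and 1.15 RPKM in ALLO and 6.48 and 6.47 RPKM in ISO, 5.51-fold lower (edgeR adjusted p = 0.00284). Its beta subunit gene Cacnb2 was 20.5-fold lower (edgeR adjusted p = 0.00388), the T-type pore gene Cacna1g 8.51-fold lower (0.00420) and Itpr1, a calcium release channel gene of the sarcoplasmic reticulum, 4.21-fold lower (0.00431). Cacna1h, another T-type gene, was the 1 gene of the list that rose (3.39-fold, edgeR adjusted p = 0.0472), and is named as such, having been picked after its value was seen.

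Of 9 genes for calcium entry in leukocytes, 6 rose and none fell. P2rx7, the ATP-gated channel through which potassium is lost before inflammasome activation, was at 14.9 and 12.7 RPKM in ALLO and 1.94 and 1.64 RPKM in ISO, 7.69-fold higher (edgeR adjusted p = 0.00284). P2rx4 rose 4.16-fold (0.00395), the oxidant-sensitive channel gene Trpm2 35.7-fold (0.0112) and Orai2, a pore of store-operated calcium entry, 6.55-fold (0.0118), all by edgeR adjusted p.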

How the data were processed

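RNA of aortic graft tissue was sequenced after removal of ribosomal RNA, per the labels' protocols. The deposited table holds raw counts, 1 row per gene and 1 column per library, with the summed exon length in bases as another deposited column. The submitters' processing notes name mm10 and, without their roles, featureCounts, R 4.0.3, DESeq2 1.30.0 and Subread 1.6.4. Neither aligner, strand setting nor annotation release is named in the sources used here, so reads shared with overlapping or antisense genes cannot be told apart. Of the 94 genes, 67 share no exonic base with another gene.

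Symbols and biotypes came from GENCODE M21, which matched 54723 of 54752 IDs, and coordinates from the deposited table. The members and lists were chosen with earlier results of these data known. Genes passing filterByExpr (minimum count 10) were scaled by TMM and tested with edgeR 4.0.16 (glmQLFit, glmQLFTest, group only, all 4 libraries), with Benjamini-Hochberg adjustment over all 16498 genes and a threshold of 0.05. RPKM values use TMM library sizes, and folds are fitted. Scaling by library size alone gave 3546 genes higher and 1867 lower (65.5% higher), against 3032 and 2437 (55.4%), and moved the median of all genes to 0.22 from 0.03 on the log2 scale. Changes are relative to TMM.

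Of genes with 1 to 20 counts, 68.0% to 74.6% had an even count, the pattern of pairs counted by both mates, so the floor for genes at 0 was 6 counts per library. Ratios with a 95% counting interval (exact) use counts divided by 2, and intervals and floors cover counting error only. Named were all called potassium channel genes and all genes of the smooth muscle and leukocyte lists, 34 in all, and of other lists up to 4 called genes with the smallest adjusted p and genes set beside a member. A few of these are counted in the totals and not reported by name here. In each pair of libraries chi-square over degrees of freedom was at least 41.6, so none agreed within sampling noise. Alternatives used limma 3.58.1 and DESeq2 1.42.0 in R 4.3.3, and tables were made with pandas 2.3.3 and scipy 1.17.1.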

Additional observations from a re-analysis of the deposited data

How the results depend on the processing

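Other scalings, filters, DESeq2 1.42.0's Wald test, limma-voom, halved counts, a replicate block and each library left out gave 13 alternative fits. Called genes numbered 5469, and 3603 to 4651 with a library left out (3603 without ISO replicate 2). The potassium channel genes called higher numbered 13, or 8 to 10 with a library left out and 12 to 15 otherwise, and those called lower 16, or 13 to 16 and 14 to 17. The direction of all 34 named genes held in all fits that gave a value, except Kcnk2, at 0.05 (log2). With a library left out it ranged between -0.95 (without ISO replicate 2) and 6.26 (without ISO replicate 1), with -0.32 without ALLO replicate 1, and it was called in no fit. With the replicate number as a block, which leaves 1 fewer residual degree of freedom, 4873 genes were called, 14 and 16 of them potassium channel genes higher and lower, and no call among the 34 named genes changed, while Kcnc4 became 49.6-fold lower. The deviations of libraries with the same number correlated at 0.0609, so the labels' numbers are not shown to pair them. With 2 libraries a group, fitted values of genes under about 50 counts rest on few reads.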
